A study of Rattus norvegicus with 8 samples.

Results

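Tubulins, neurofilaments and the proteins that bind microtubules or walk along them were followed probe by probe in rat hippocampus. The members were the array probes whose deposited gene name begins as tubulins (alpha, beta and gamma, with the gamma-tubulin complex), Map1a, Map1b, Map1s, neurofilaments, stathmins, the collapsin response mediators of the Dpysl family or kinesins do, or is exactly Map2, Map4, Map6 or Mapt. By that rule 55 of the 15207 probes that are not controls were members, and they stood for 49 of the 11577 genes named on the array. A probe was tested where its spot stood well above background on 4 or more of the 8 arrays, which held for 51 of the 55, and 46 did so on all 8. The study set rats given fluoxetine, a selective serotonin reuptake inhibitor, as pups (the PNFLX group, 10 mg/kg) against rats given its vehicle (control, 5% sucrose), with 4 samples in each group. Dosing ran from postnatal day 2 to day 21 by the protocol, whereas the sample descriptions give end days that increase with the order of the samples, up to 28. Those described days run from 25 to 28 for PNFLX and from 21 to 24 for control, so the described end day and the group cannot be told apart. Whole hippocampi were taken at 2 months of age and the labelled RNA of a sample went onto 1 Agilent array, read in 1 colour. The labels do not state that each sample came from a separate animal, so p-values measure the spread between these samples, which may be technical.

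Microtubules are hollow polymers of alpha and beta tubulin, started from rings of gamma tubulin, and in neurons they give axons and dendrites their shape and serve as tracks. Microtubule-associated proteins such as tau (Mapt) stabilise them, stathmins take up free tubulin dimers and promote disassembly, and the collapsin response mediators bind tubulin dimers and act in axon growth. Neurofilaments are intermediate filaments that set axon calibre, and kinesins are motors that carry organelles and vesicles along microtubules or, for the mitotic kinesins, act on the spindle.

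The comparison rests on short probes printed at fixed places of the array, and several genes have more than 1 probe. Each position is given by its spot row, from 1 to 192. The 6 probe sequences below are shown because the values of their genes are followed closely below. Kif3a, Kif1b and Map1a have the same sequence printed at more than 1 row. Map1a was not a member, since its deposited gene name is an older one. Tubb2b and Kif5c gave large differences at 1 spot. The Stmn1 probe shown, at row 101, is the second probe of a gene whose large difference was at row 17, a probe not shown. Each is 60 bases long, written 5′ to 3′ as deposited, with the positions of the files on the rn4 build.
Kif3a, rows 178 and 153, chr10:39065197-39068158, plus strand: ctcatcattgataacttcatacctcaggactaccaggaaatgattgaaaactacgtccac
Kif1b, rows 184 and 131, chr5:166318944-166319003, minus strand: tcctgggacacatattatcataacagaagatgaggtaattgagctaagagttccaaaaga
Map1a, rows 192 and 122, chr3:108004381-108004440, plus strand: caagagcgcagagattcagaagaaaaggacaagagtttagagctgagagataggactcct
Tubb2b, row 183, chr17:37092716-37092775, plus strand: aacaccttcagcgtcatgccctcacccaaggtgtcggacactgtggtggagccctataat
Stmn1, row 101, chr5:153241158-153241217, plus strand: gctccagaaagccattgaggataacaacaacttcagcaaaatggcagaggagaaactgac
Kif5c, row 182, chr3:30621228-30621287, plus strand: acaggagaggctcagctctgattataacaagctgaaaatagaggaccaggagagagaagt
The Kif3a probe spreads its 60 bases over 2962 bases of the genome, so it crosses at least 1 splice junction. No annotation of exons on rn4 was used here. Tubulin genes are close copies of each other, and how far a tubulin probe also binds its relatives was not tested.

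All 8 arrays lay on 1 slide, PNFLX in one row of the slide and control in the other, so the slide row and the group cannot be told apart. The 75th percentile of the processed signal was 873 to 941 on the PNFLX arrays and 654 to 880 on the control arrays, and each array was scaled to its own. Markers of forebrain and hippocampal neurons such as Camk2a and Snap25 were detected, with 6 of the 7 genes on the array well above background on all 8 arrays, and their 8 tested probes had a median log2 difference of -0.04. Markers of oligodendrocytes were lower on 9 of 9 probes (median -0.27, 6 genes). Those of microglia were lower on 6 of 6 (median -0.23, 4 genes), where 54.5% of all probes were lower. Blood markers were higher on 4 of 4 (median 0.47, 3 genes), where 45.5% of all probes were higher. By sample, the median deviation from each probe's middle overlapped between the groups on all of these lists. For oligodendrocytes it was -0.44 to 0.25 in PNFLX samples and -0.09 to 0.35 in control samples. For microglia it was -0.34 to 0.22 in PNFLX and -0.07 to 0.33 in control. For blood it was -0.08 to 0.61 in PNFLX and -0.32 to -0.06 in control. For meninges and fibroblasts the median over 10 probes was 0.16, for astrocytes over 7 it was -0.05, for immature neurons over 5 it was -0.08, for proliferating cells over 3 it was 0.33, and for Prph, the only detected marker of peripheral and brainstem neurons, its 2 probes gave 0.15 and 0.19. The choroid plexus markers varied most by sample, their median lying -2.25 to 1.15 from each probe's middle in PNFLX samples and -2.20 to 4.24 in control samples. In limma 0 marker probes passed an adjusted p of 0.05, with 3 of blood, 3 of meninges and fibroblasts and 2 of immature neurons at an unadjusted p under 0.05, which 12.5% of all probes had, and the part of the markers in the values below was not tested. The 2 of immature neurons were Dcx (0.75) in spot row 1 and Sox11 (1.27) in row 2, where all probes had median differences of 1.253 and 1.287. In tissue with many cell types, fewer cells of a type and less RNA per cell cannot be told apart.

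No member differed between the groups at an adjusted p of 0.05 (limma, Benjamini-Hochberg over all 11600 probes tested): 0 of 51 were called, where 0.672% of all probes were, and the smallest adjusted p of a member was 0.214. At an unadjusted p under 0.05 there were 7 members, or 13.7%, beside 12.5% of all probes. Of these 7, 6 were higher in PNFLX (11.8% of the members, beside 5.09% of all probes) and 1 was lower (1.96%, beside 7.4%). The groups did not overlap on 5 members, or 9.8%, beside 10.7% of all probes, with PNFLX above on 4 (7.84%, beside 4.33%) and below on 1 (1.96%, beside 6.41%). The log2 difference, PNFLX minus control, was above 0 on 23 members (45.1%, beside 45.5% of all probes) and below 0 on 28. Its median was -0.04 over the members and -0.03 over all probes, and 34 of the 51 members lay between -0.3 and 0.3. Over both directions the members' shares were near those of the whole array, and by direction more of the members with low p lay above 0, in counts of 6 and 1 that were not tested. Of the 6, Tubgcp5, Kif9, Kif5b, Kif3a and Kif1b lay at spot rows 168 to 184. The median difference of all tested probes in the 5 rows around each of these was also above 0, from 0.06 to 0.21. It was -0.04 around Kif21a, the other of the 6, and 0.26 around Tubb2b, the lower one. The Kif1b spot was well above background on 4 PNFLX arrays but on only 2 control arrays. The part of position was not tested. With 4 samples a group, a p that misses the threshold does not show that the levels were equal.

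**Figure D1:**
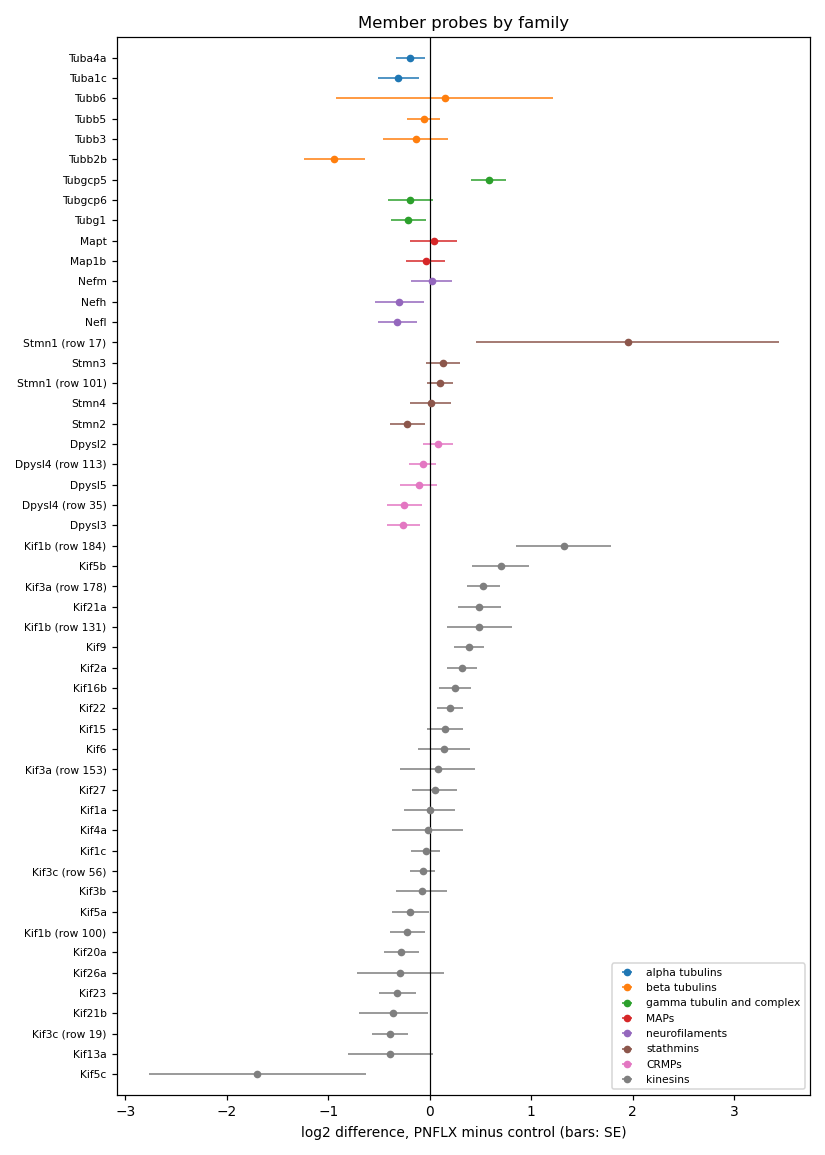
Each point is the log2 difference, PNFLX minus control, of 1 of the 51 tested member probes (x axis), with its moderated standard error as a bar, grouped and coloured by family down the page. Most points lie between -0.3 and 0.3, and the widest bars belong to Stmn1 at row 17, Kif5c and Tubb6.

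Among the alpha tubulins, the building blocks of the microtubule wall together with beta tubulin, both tested probes were lower by value in PNFLX. Tuba1c was at 5.18, 5.08, 5.06 and 4.37 in PNFLX samples 1 to 4, against 5.40, 5.24, 5.06 and 5.22 in control samples 1 to 4. These are log2 signals with the 75th percentile of the same array at 0, the scale of every level below. The groups overlapped, PNFLX 4 was the lowest, and the difference was -0.31 (SE 0.20, limma adjusted p = 0.552), or -0.13 without PNFLX 4. Tuba4a differed by -0.19 (SE 0.14), but its spot was saturated on all 4 PNFLX arrays and on 3 control arrays, and with a flagged spot of control 4 kept the sign turned, to 0.34. Tubal3, a tubulin-alpha-like gene, was well above background on 2 PNFLX arrays and 1 control array and was not tested. No probe of Tuba1a was among the members.

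Of the 4 beta tubulins, Tubb2b, an isotype of developing neurons, had the lowest p. Its level was 3.69, 3.41, 3.45 and 2.26 in PNFLX samples 1 to 4, against 4.32, 3.94, 4.01 and 4.27 in control samples 1 to 4. Every PNFLX sample lay below every control sample. The means were 3.20 ± 0.64 in PNFLX and 4.14 ± 0.19 in control (SD, n = 4 each), a log2 difference of -0.94 (SE 0.30) or 1.91-fold lower, which did not pass (unadjusted p = 0.0141, limma adjusted p = 0.264). PNFLX 4 was the lowest by far, and without it the difference was -0.62 (adjusted p = 0.163). The median difference of all probes within the 5 spot rows around Tubb2b ran the other way, at 0.26.

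The other beta tubulins overlapped between the groups. Tubb3, the neuron-specific beta tubulin, was at 3.38, 3.37, 3.58 and 2.89 in PNFLX, against 3.75, 2.47, 3.68 and 3.87 in control, with control 2 the lowest (difference -0.14, SE 0.32, and -0.46 without control 2). Tubb5 differed by -0.06 (SE 0.16), and its spot was saturated on 3 PNFLX arrays. Tubb6 lost 2 PNFLX spots to outlier flags and had 3.31 and 2.61 left in PNFLX, against 0.21, 4.02, 3.75 and 3.23 in control (difference 0.15, SE 1.07). Control 1 was the low one among the kept spots, and its 27 neighbouring spots were low on that array too, with a median of -1.95 from the other arrays. Its mean brightness was 923, against 916 to 10700 on the other arrays, so control 1 was not the only array with a dim spot. All kept spots of the other arrays were at 2.61 or above.

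In the gamma-tubulin group, which starts new microtubules, 3 of 4 probes were tested. Tubgcp5, a subunit of the gamma-tubulin ring complex, was at -2.38, -2.38, -2.42 and -1.82 in PNFLX, against -2.76, -2.73, -2.98 and -2.84 in control. Every PNFLX sample was above every control sample and PNFLX 4 was the highest. The difference was 0.58 (SE 0.17), 1.49-fold higher, with the smallest p of any member, and did not pass (unadjusted p = 0.00821, limma adjusted p = 0.214). With another background correction (normexp) the difference was 0.00 relative to its shift of the median of all probes, and -0.34 as fitted. Normexp values of single probes below are relative to that shift unless given as fitted. The other tested probes of the complex lay below 0: Tubg1, gamma tubulin itself, differed by -0.21 (SE 0.17) and Tubgcp6 by -0.19 (SE 0.22), both with overlapping groups. Tubgcp3 was well above background on 1 array of each group and was not tested.

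**Figure D2:**
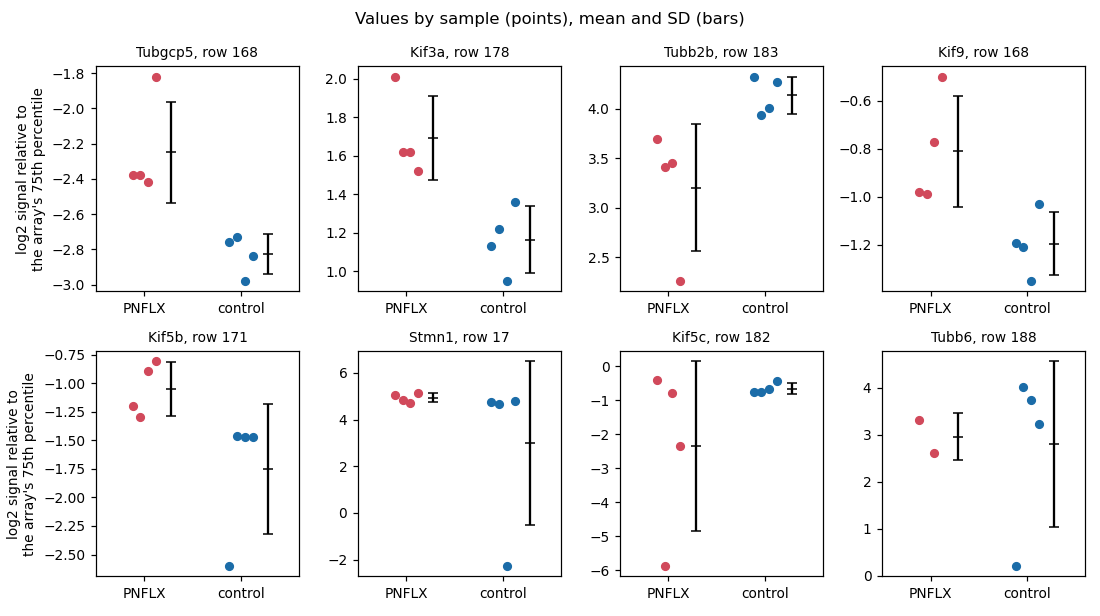
Levels of 8 member probes by sample (points, log2 signal, 75th percentile of the array at 0), PNFLX left of control, with the mean and SD beside each group. Tubgcp5, Kif3a at row 178, Kif9 and Kif5b lie higher in every PNFLX sample and Tubb2b lower. Stmn1 at row 17 and Tubb6 each have a single plotted spot far from the rest, and Kif5c is low on PNFLX 2 (-5.88) and PNFLX 4 (-2.34).

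Both tested microtubule-associated proteins had a difference close to 0. Mapt was at 5.50, 5.21, 4.83 and 5.58 in PNFLX, against 4.80, 5.40, 5.16 and 5.62 in control (difference 0.04, SE 0.23). Map1b, which acts in growing axons, was at 0.05, -0.36, -0.45 and -0.62 in PNFLX, against -0.39, -0.12, -0.63 and -0.09 in control (difference -0.04, SE 0.19). The groups overlapped on both, and the sign of each turned when 1 or another sample was left out.

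The neurofilament subunits were low by value in PNFLX for the light and heavy chains and near 0 for the medium chain. Nefl was at 2.60, 2.40, 2.38 and 1.97 in PNFLX, against 3.06, 2.46, 2.54 and 2.59 in control (difference -0.32, SE 0.19, adjusted p = 0.522). Nefh was at 1.12, 0.83, 0.86 and 0.01 in PNFLX, against 1.04, 1.09, 1.07 and 0.81 in control (difference -0.30, SE 0.24). PNFLX 4 was the lowest sample on both, and the groups overlapped. Without PNFLX 4 the differences were -0.20 for Nefl and -0.07 for Nefh, and without control 1 that of Nefl was -0.19. Nefm, whose probe lies 59747 bases from that of Nefl on chromosome 15 of rn4, was at 4.71, 4.64, 4.92 and 4.80 in PNFLX, against 5.30, 4.38, 4.72 and 4.57 in control (difference 0.02, SE 0.20).

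The stathmins held the highest value of any member, and 1 spot set it. Stmn1, which sequesters tubulin, was at 5.04, 4.85, 4.73 and 5.13 in PNFLX, against 4.74, 4.68, -2.27 and 4.79 in control, on its probe at row 17. The difference was 1.95 (SE 1.49, adjusted p = 0.613) with all samples and 0.20 without control 3. The mean brightness of that spot was 179 on control 3, against 14500 to 32800 on the other 7 arrays, while its 35 neighbouring spots had a median of -0.19 from the other arrays, with 3 of the 35 also more than 3 log2 units below them. The second Stmn1 probe, at row 101 and printed above, was at 3.51, 3.66, 3.72 and 3.46 in PNFLX, against 3.42, 3.60, 3.32 and 3.60 in control (difference 0.10, SE 0.13), and control 3 was not far from the rest there. Stmn2, a growth-associated stathmin of neurons, differed by -0.22 (SE 0.17), Stmn3 by 0.13 (SE 0.17) and Stmn4 by 0.01 (SE 0.20), with overlapping groups in each.

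All 5 probes of the collapsin response mediators lay between -0.26 and 0.08. Dpysl2, the member best known for binding tubulin dimers, was at 4.83, 5.24, 5.30 and 5.08 in PNFLX, against 5.17, 4.88, 4.98 and 5.11 in control (difference 0.08, SE 0.15). Dpysl3 was at -3.39, -3.25, -2.94 and -3.61 in PNFLX, against -2.97, -3.01, -3.01 and -3.16 in control (difference -0.26, SE 0.16). Dpysl5 differed by -0.11 (SE 0.18). The groups overlapped on every probe of this family.

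Kinesins made up 29 of the member probes, 27 of them tested, with 14 above 0, 13 below and a median of 0.00. An unadjusted p under 0.05 was reached by 5 of the 27 (18.5%), beside 12.5% of all probes. These 5 include Kif1b at row 184, which was tested through the group where it was high. That spot was well above background on 4 PNFLX arrays but on only 2 control arrays. Kif3a, a motor subunit of kinesin-2, which moves cargo in axons and cilia, was at 2.01, 1.62, 1.62 and 1.52 in PNFLX, against 1.13, 1.22, 0.95 and 1.36 in control, on its spot at row 178. The groups did not overlap, with means of 1.69 ± 0.22 in PNFLX and 1.17 ± 0.17 in control (SD, n = 4 each). The difference of 0.53 (SE 0.16), 1.44-fold higher, did not pass (unadjusted p = 0.00997, limma adjusted p = 0.229). Its partners in the motor lay below 0, with Kif3b at -0.08 (SE 0.25) and Kif3c, which also pairs with Kif3a, at -0.39 (SE 0.18) and -0.07 (SE 0.12) on its 2 probes.

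Of the kinesin-1 heavy chains, the main motors of anterograde axonal transport, Kif5b was at -1.20, -1.30, -0.89 and -0.81 in PNFLX, against -2.60, -1.46, -1.47 and -1.47 in control. The groups did not overlap, and control 1 stood far below the other controls. The difference was 0.70 (SE 0.28, unadjusted p = 0.0364, limma adjusted p = 0.362), and 0.42 without control 1. With normexp it was 0.10, or -0.25 as fitted. Kif5c was at -0.40, -5.88, -0.79 and -2.34 in PNFLX, against -0.76, -0.76, -0.68 and -0.42 in control. Its difference of -1.70 (SE 1.07) was -0.52 without PNFLX 2, whose spot had a mean brightness of 60.9, against 149 to 605 on the other arrays. Kif5a differed by -0.19 (SE 0.18) with overlapping groups.

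Among the remaining kinesins, Kif9 was at -0.98, -0.99, -0.77 and -0.50 in PNFLX, against -1.19, -1.21, -1.35 and -1.03 in control (difference 0.39, SE 0.15, unadjusted p = 0.0344, limma adjusted p = 0.358). Those groups did not overlap, and with normexp Kif9 gave 0.20, or -0.14 as fitted. Kif21a was at -4.51, -4.13, -4.13 and -3.97 in PNFLX, against -4.69, -5.12, -4.62 and -4.26 in control (difference 0.49, SE 0.21, unadjusted p = 0.0459, limma adjusted p = 0.387), with overlap, and -0.36 with normexp. Kif1a, the motor of synaptic vesicle precursors, was at -0.45, -0.48, -0.22 and 0.33 in PNFLX, against 0.16, -0.74, -0.02 and -0.24 in control, a difference of 0.00 (SE 0.25). Kif2a, which takes microtubules apart at their ends, differed by 0.32 (SE 0.15) and Kif16b, an endosome motor, by 0.25 (SE 0.16). Kif1c, Kif6, Kif13a, Kif21b, Kif26a and Kif27 lay between -0.39 and 0.14.

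Of the 7 probes of mitotic kinesins, 5 were tested, and none had an unadjusted p under 0.05. Kif23, of the central spindle, differed by -0.32 (SE 0.18), Kif20a by -0.28 (SE 0.17), Kif4a by -0.02 (SE 0.35), Kif15 by 0.15 (SE 0.18) and Kif22 by 0.20 (SE 0.13). All 5 had overlapping groups. Kif14 was well above background on 1 PNFLX array and on 0 control arrays, and Kif2c on 0 arrays of either group, so neither was tested.

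Probes of one gene at different rows gave a check of each difference within the same arrays. For every pair of probes of a gene the within-array difference was compared between the groups, so the scaling of the arrays cancels. Over the whole array 34 of 2661 such pairs (1.28%) were called by limma at an adjusted p of 0.05, as were 0 of the 7 pairs among the members. Of those 7, 2 had an unadjusted p under 0.05, both with the Kif1b spot at row 184, where 14.2% of all pairs did.

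Kif1b, an axonal kinesin of mitochondria and synaptic vesicle precursors, had 3 probes. The spot at row 184 was at -5.20, -5.05, -3.46 and -4.76 in PNFLX, against -6.76, -6.37, -5.46 and -5.18 in control (difference 1.32, SE 0.47, unadjusted p = 0.0224, limma adjusted p = 0.312). It was well above background on 4 PNFLX arrays but on only 2 control arrays, so it was tested through the group where it was high, and with normexp it gave -0.46. The same sequence at row 131 was at -5.91, -5.56, -4.80 and -4.87 in PNFLX, against -6.45, -5.69, -5.49 and -5.48 in control (difference 0.49, SE 0.32), well above background on 3 PNFLX and 2 control arrays, and gave -0.49 with normexp. On the values as first scaled both spots were higher in PNFLX with overlapping groups, and the difference between the spots was 0.83 (SE 0.31, limma adjusted p = 0.2825). The third probe, of another sequence at row 100, was at 0.31, -0.14, -0.13 and -0.38 in PNFLX, against 0.19, -0.03, 0.21 and 0.16 in control (difference -0.22, SE 0.17). The within-array difference between that probe and the spot at row 184 was smaller in PNFLX, by a pair difference of -1.55 (SE 0.52, limma adjusted p = 0.2391).

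Kif3a was printed at rows 178 and 153 with the same sequence. At row 153 it was at 0.53, 0.50 and 0.05 in PNFLX samples 1 to 3, against 0.32, 0.95 and -0.43 in control samples 1 to 3, since the spots of sample 4 in both groups carried outlier flags. The groups overlapped there, and the difference was 0.08 (SE 0.37), against 0.53 at row 178. The spot at row 178 read 1.11 ± 0.50 (SD, n = 6 arrays) higher than that at row 153 on the same array, and the pair difference between the groups was 0.57 (SE 0.32, limma adjusted p = 0.4969). So the non-overlap at row 178 was not seen at the other spot of the same sequence, although the test of the pair did not separate the spots. The spot at row 153 lay in the last of 82 spot columns and that at row 178 in column 5, and the part of the column was not tested.

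Of the remaining pairs, those of Kif3c and Dpysl4 lay closer. Kif3c, with the same sequence at rows 19 and 56, was at 1.07, 1.61, 1.49 and 1.56 in PNFLX, against 1.70, 2.12, 1.57 and 1.90 in control, at row 19. At row 56 it was at 1.52, 1.42, 1.55 and 1.44 in PNFLX, against 1.69, 1.49, 1.56 and 1.49 in control, so the pair difference was -0.32 (SE 0.21). Dpysl4, with the same sequence at rows 35 and 113, gave -0.25 (SE 0.17) and -0.07 (SE 0.13), a pair difference of -0.18 (SE 0.11). The Stmn1 probes at rows 17 and 101 had a pair difference of 1.85 (SE 1.51), with a within-array value of -5.59 on control 3 and 1.01 to 1.67 on the other arrays. Over the array, the 1944 pairs of identical sequence had a median absolute pair difference of 0.22, and 25.4% of them were over 0.5.

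**Figure D3:**
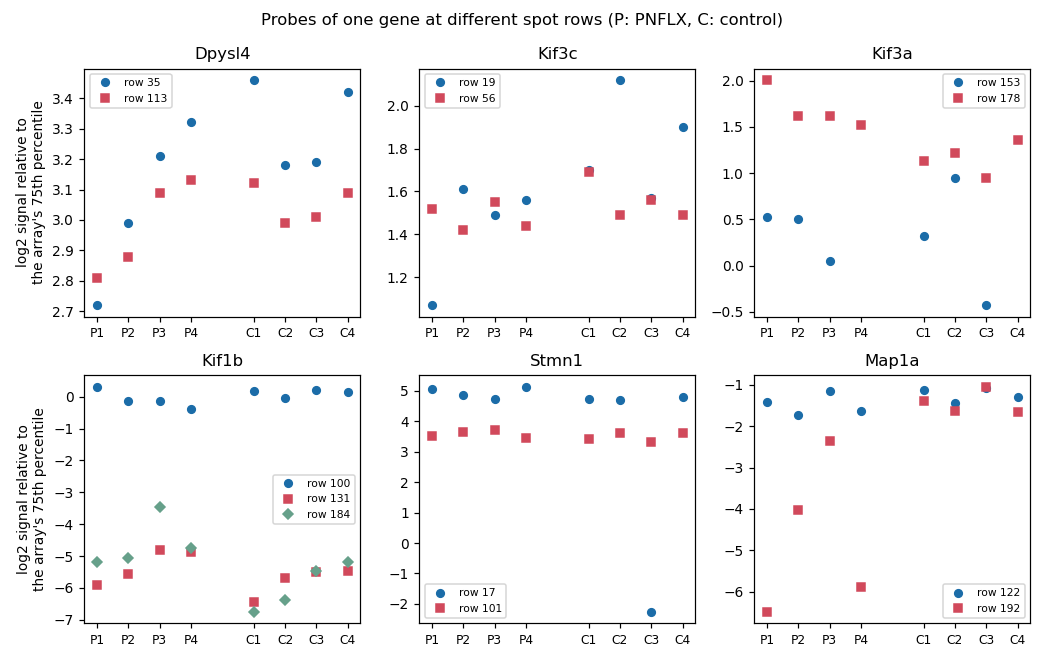
Levels by sample (log2 signal, 75th percentile of the array at 0) of the probes of 6 genes, with PNFLX samples (P1 to P4) left of control samples (C1 to C4) and 1 colour and marker for each spot row. The y axes differ between genes. The spots of Dpysl4 lie within 0.34 of each other on every array and those of Kif3c within 0.63, Stmn1 at row 17 drops on C3, and Map1a at row 192 drops on the 4 PNFLX arrays.

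Over all probes, log2 differences scattered more in the outer spot rows than in the inner ones. Of the tested members, 39 lay in the inner rows, more than 20 from either end of the array, with a median difference of -0.07 and a median absolute difference of 0.20, the same as for all probes there (0.20). The 7 members between the inner rows and the last 5 rows had a median absolute difference of 0.53, against 0.37 for all probes there. Those 7 include Tubb2b, Kif5c, Kif3a at row 178 and Kif1b at row 184. In the first 5 rows, where all probes had a median difference of 0.75, there was no member, and in the last 5, where it was -0.79, only Tubb6. After each array's row and column medians were subtracted, Tubb2b gave -1.18 (adjusted p = 0.18), Kif1b at row 184 gave 1.24 (adjusted p = 0.314) and Kif3a at row 178 gave 0.47 (adjusted p = 0.458).

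**Figure D4:**
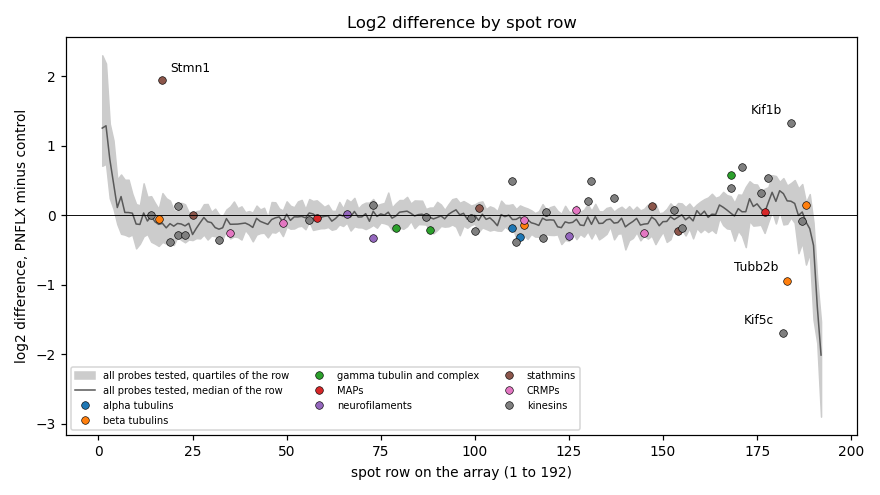
Log2 difference, PNFLX minus control (y axis), against the spot row on the array (x axis), with member probes as coloured points and the median and quartiles of all tested probes of each row in grey. The grey band leaves 0 in the outermost rows, and the members furthest from 0 lie at rows 17 and 182 to 184.

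Family genes that the deposited file lists under older names fell outside the rule and were taken from its current gene assignment, giving 9 probes of 7 genes. Map1a, a dendritic and axonal microtubule-associated protein, had the largest pair difference among the family's pairs of one sequence. At row 192 it was at -6.49, -4.03, -2.35 and -5.88 in PNFLX, against -1.39, -1.63, -1.05 and -1.65 in control, without overlap, and only 2 of the 4 PNFLX spots were well above background. At row 122 it was at -1.41, -1.73, -1.15 and -1.63 in PNFLX, against -1.14, -1.45, -1.08 and -1.30 in control, with overlap. The differences were -3.26 (SE 0.81, limma adjusted p = 0.143) at row 192 and -0.24 (SE 0.17) at row 122, and the pair difference was 3.02 (SE 0.79, adjusted p = 0.142). All probes of row 192 had a median difference of -2.01.

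Map2, the dendritic microtubule-associated protein, was at 0.65, 0.18, 0.38 and 0.12 in PNFLX, against 0.95, 0.62, 0.38 and 0.65 in control (difference -0.32, SE 0.18, limma adjusted p = 0.495). Map6, which protects microtubules from cold, differed by -0.17 (SE 0.31), Map1s by -0.11 (SE 0.35), Tuba8 by -0.12 (SE 0.17) and Kif20b by 0.08 (SE 0.27). Tubgcp4, of the gamma-tubulin complex, differed by 0.12 (SE 0.20) at row 143 and by 0.56 (SE 0.44) at row 185. None of these passed an adjusted p of 0.05.

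Of a list of 72 genes for tubulin folding, severing, tip binding, dynein, kinesin light chains, kinases of tau, doublecortins and other intermediate filaments, 62 were tested on 82 probes. In limma 0 of these passed an adjusted p of 0.05, 41 lay above and 41 below 0, and 5 (6.1%) had an unadjusted p under 0.05, beside 12.5% of all probes. Katna1, the catalytic subunit of the severing enzyme katanin, came nearest, at 0.58 (SE 0.11, limma adjusted p = 0.067) without overlap, on a spot at row 181. Dcx, a microtubule protein of young migrating neurons, gave 0.75 (SE 0.19, limma adjusted p = 0.143) without overlap, on a spot in row 1. All probes of row 1 had a median difference of 1.253, above that of Dcx, and those of row 181 had 0.353.

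Single samples were not spread evenly over the members. Over the 47 members with a value on all 8 arrays, PNFLX 4 was the lowest sample on 16 (34.0%), where it was so on 27.6% of all probes. PNFLX 4 was also the highest sample on 10 (21.3%), beside 22.2% of all probes. PNFLX 3 was the highest on 16 (34.0%), beside 18.7% of all probes. The members' median deviation from each probe's own middle was 0.16 in PNFLX 3 and -0.08 in PNFLX 4, where all probes had 0.08 and -0.06. These are descriptions, with no test.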

How the data were processed

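RNA of 8 hippocampus samples, 4 PNFLX and 4 control, was measured on 1 array each. Intensity values, and the flags for spots that were well above background, saturated or outlying (another kind of deposited column), were made by the authors with Agilent Feature Extraction 10.5.1.1, per the file headers. A deposited table of log2 values by the authors equalled, to within 0.00241 over 15207 probes, the log2 processed signal scaled to the 75th percentile of its array and centred by probe on the median, so its scale, centring and direction are known. Its column medians were -0.04, -0.07, 0.10 and -0.13 in PNFLX and 0.06, -0.05, 0.04 and 0.04 in control, and 0 of its columns were not mapped to a sample. An intensity column has no counts, so the number of arrays limits the precision.

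From the processed signals, log2 was taken and the 75th percentile of each array subtracted, 521 outlier-flagged spots over 8 arrays were dropped, and 11600 probes well above background on 4 or more arrays were tested with limma 3.58.1 in R 4.3.3 (group only, empirical Bayes, Benjamini-Hochberg, threshold 0.05). SE is moderated. Correlations between arrays were 0.956 to 0.984. Names came from RefSeq (GRCr8, names only) for 14164 probes of 11577 genes, 55 of 55 members among them. Probe positions, as deposited, refer to rn4. Members and lists were chosen with earlier results of these data known. Named were members past the threshold (0), the 12 higher and 12 lower of smallest p, genes with several probes, and 15 genes fixed by name. The scripts were tested on simulated data with normal noise, without trends by spot row or single low spots, so that test does not cover these. The comparisons were repeated under 20 other settings, with each sample left out among them, and 1 more was added after seeing the data. By their deviations, not their levels as above, same-numbered samples of PNFLX and control correlated at r = 0.01, 0.08, 0.09 and 0.02, so numbers were not taken to pair them.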

Additional observations from a re-analysis of the deposited data

Results flagged for a closer look

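In 11 of 97 groups of 4 values among the tested members (11.3%) the highest or lowest sample stood apart from the other 3 of its group by more than Dixon's 95% critical value for the gap as a share of the range. Chance alone marks about 1 group in 20. The share over all probes was not computed, so this count does not set the members apart from the rest of the array. In PNFLX, Tuba1c was at 4.37 in sample 4, against 5.06 to 5.18 in the others, and Kif5a at -1.49 in sample 4, against -0.88 to -0.82. Stmn3 was at 5.48 in sample 1, against 5.77 to 5.83. Tubgcp5 was at -1.82 in sample 4, against -2.42 to -2.38, and this is the sample furthest from control on that probe. In control, Stmn1 at row 17 was at -2.27 in sample 3, against 4.68 to 4.79, and Kif5b at -2.60 in sample 1, against -1.47 to -1.46. Tubb3 was at 2.47 in sample 2, against 3.68 to 3.87, Stmn3 at 5.19 in sample 2, against 5.72 to 5.74, and Kif5a at -0.97 in sample 2, against -0.77 to -0.75. Nefh was at 0.81 in sample 4, against 1.04 to 1.09, and Kif4a at -4.83 in sample 2, against -5.16 to -5.15. PNFLX 4 accounts for 3 of the 4 marks in PNFLX and control 2 for 4 of the 7 in control. The Stmn1 spot of control 3 sets the size of that probe's difference, as given above.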

How the results depend on the processing

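No member passed an adjusted p of 0.05 under any of 20 other settings, or with spots of identical sequence averaged, the 1 setting chosen after seeing the data. Pairs had a value under 18 of the settings, and no pair of members passed there; without scaling a within-array difference is the same by construction, 1 probe a gene leaves no pair, and pairs were not tested with identical spots averaged. For all probes the calls ran from 0 (without the first and last 5 rows, or with the inner rows only, more than 20 from either end) to 143 (no scaling between arrays), beside 78 in the main setting, with 50 under normexp, 24 after row and column medians were subtracted, 46 with no filter on dim probes, 47 with probes well above background on all 8 arrays, 48 with the brightest probe of each gene, and 33 to 104 with a sample left out. Calls of pairs, 34 in the main setting, were 179 under normexp, 10 after row and column medians, 10 with probes well above background on all 8 arrays, 0 without the end rows, 6 with the inner rows only, and 6 to 22 with a sample left out. With the replicate number as a block, 13 of 11600 probes, 0 members and 0 of 2661 pairs were called. The numbers did not pair the samples by the check, and 2 of the 4 PNFLX samples correlated best with their own number. The members' median of -0.04 was 0.26 with no scaling, which moved the median of all probes by 0.30, and -0.25 under normexp, which moved it by -0.35; it ran from -0.09 to 0.01 with a sample left out.

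Values under normexp and with no scaling are given here relative to the shift of the median of all probes. On that scale, 11 of 36 named probes kept their sign under every setting that gave them a value. Tubb2b (-1.18 to -0.62) and Kif3a at row 178 (0.42 to 0.59) were among them, although neither spot lies in the inner rows. As fitted, with the shift left in, some of the 11 turned. Kif5b gave -0.25 and Kif9 -0.14 under normexp, and Kif20a gave 0.01 and Tubg1 0.09 with no scaling. Tubgcp5 (0.00 to 0.64) and Kif1a (-0.18 to 0.78, from 0.00) did not keep a sign, and 23 others turned under at least 1 setting, in 38 values. Under normexp, taken relative to that shift, Kif3c gave 0.81 (row 19) and 0.66 (row 56), Dpysl4 0.93 (row 35) and 0.49 (row 113), Map1b 0.19, Nefl 0.28, Nefh 0.24, Tuba4a 0.50, Tuba1c 0.26, Tubb3 0.49, Stmn2 0.33, Kif15 -0.22, Kif21a -0.36, Kif22 -0.06, Kif16b -0.40 and Kif2a -0.28. Kif1b gave 0.19 (row 100), -0.49 (row 131) and -0.46 (row 184) there. The shift is a single value for all probes, and these turns went with brightness. The probes that turned to above 0 under normexp had mean levels of -0.35 or above in both groups. Those that turned to below 0 had mean levels of -2.17 or below in both groups. With outlying spots kept, and in the authors' deposited table, Tuba4a gave 0.34 and Kif3a at row 153 -0.06. After row and column medians were subtracted, Map1b gave 0.12, Dpysl4 (row 113) 0.07, Dpysl3 0.09 and Mapt -0.13. With a sample left out, Map1b ran from -0.17 to 0.05, Nefm from -0.10 to 0.21, Kif3a at row 153 from -0.28 to 0.41 and Mapt from -0.11 to 0.18. The cause of these turns was not tested. Background limits the dim probes (4 members were not tested) and saturation limits Tuba4a and Tubb5.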

Other observations

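Bright spots that fell more than 3 log2 units below the other arrays made up 4.99% of spots in the first 5 rows, 1.09% in rows 6 to 20, 0.31% in the inner rows, 0.839% between those and the last 5, and 4.42% in the last 5. Among the members there were 3 such spots: Stmn1 at row 17 on control 3 (-7.06 from the median of the other arrays), Kif5c at row 182 on PNFLX 2 (-5.12) and Tubb6 at row 188 on control 1 (-3.09). The spots around Kif5c had a median of -0.01 from the other arrays, so that spot stood alone among its neighbours. The identical-sequence pairs with both spots in the inner rows (1265) had a median absolute pair difference of 0.16, against 0.41 for the 679 with a spot in the outer 20 rows of either end.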
